A study of Rattus norvegicus with 82 samples.

Results

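The genes described here are Myc and the factors that build ribosomes in the nucleolus. A list of 44 genes was matched by symbol to the annotation of the array, and 43 were found. Npm1 was dropped because its probe sets carry several symbols. Where a gene had several probe sets, the brightest on average across the 82 arrays was used, as for all 14217 genes with a symbol. The filter on low values, which asked for an intensity above the 40th percentile of the array on at least 5 arrays, kept 42 of the 43 members and 11319 genes in all. Noc3l, at a mean of 17.5 in saline at 6 h and 20.5 after the higher vinblastine dose, stayed under it and was not tested.

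Ribosomes are assembled around ribosomal RNA that RNA polymerase I transcribes in the nucleolus, while RNA polymerase III supplies the 5S ribosomal RNA and the transfer RNAs. Small nucleolar particles of the box C/D and box H/ACA kinds guide methylation and pseudouridylation of that RNA, and further factors cut, fold and export the small and the large subunit. Myc, a transcription factor that binds the E-box CACGTG with its partner Max, is known to drive many of these genes. In the heart, Myc and ribosome production are known to rise early when the muscle is put under load.

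The samples were hearts of male Wistar rats, Crl:Wi(Han), each given an intravenous injection and taken 6 or 24 h later. Vinblastine was given at 0.5 or 3 mg/kg, vincristine at 0.1 or 1 mg/kg and colchicine at 0.2 or 2 mg/kg, all in 0.9% saline, and the control animals received 0.9% saline. All 3 agents bind tubulin: vinblastine and vincristine are vinca alkaloids that carry a methyl or a formyl group at the same nitrogen, and colchicine is of another class and binds another site. There were 14 groups of 6 arrays, or of 5 arrays for the lower vincristine dose at either time. The doses differ between compounds in mg/kg, so a comparison of compounds is one of these dose groups only. No age was used, whole heart RNA mixes all cell types, and in such samples fewer cells of a type and less RNA per cell cannot be told apart. The labelled tissue was borne out by 11 of 12 listed cardiomyocyte markers with a probe set, all above the 40th percentile on all 82 arrays.

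The values are linear intensities that ran from 9.76 to 39497, with array medians between 57.6 and 63.3. Of the 82 arrays, 10 had a profile over all tested genes, members included, that lay nearer to another group than to their own, by a ratio of distances above 1.3. Further arrays also lay nearer to another group but at smaller ratios, such as replicate 4 of saline at 6 h (1.22), and were not set apart. These 10 included replicate 1 of vinblastine 3 mg/kg at 6 h, nearest to colchicine 2 mg/kg at 24 h (ratio 1.65), and replicate 1 of colchicine 2 mg/kg at 24 h, nearest to colchicine 0.2 mg/kg at 24 h (ratio 3.20). The others were replicate 6 of vinblastine 0.5 mg/kg at 6 h, replicate 5 of vinblastine 0.5 mg/kg at 24 h, replicate 5 of vincristine 0.1 mg/kg at 24 h, replicate 3 of vincristine 1 mg/kg at 6 h, replicates 1 and 6 of colchicine 0.2 mg/kg at 6 h, replicate 6 of colchicine 0.2 mg/kg at 24 h and replicate 4 of colchicine 2 mg/kg at 6 h. Whether any of them carries the label of another animal was not tested, and the main results below are given with and without these 10 arrays. Leaving them out narrows the spread within groups by construction, so adjusted p-values without them are lower for that reason as well.

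The promoters of 3 members with large changes are shown because they hold the E-box that Myc is known to bind. Each runs from 250 bases before to 50 bases after the annotated start (RefSeq, GRCr8, gene strand, 300 bases), and capitals mark CACGTG.
Rcl1, chr1:236237865-236238164, plus strand: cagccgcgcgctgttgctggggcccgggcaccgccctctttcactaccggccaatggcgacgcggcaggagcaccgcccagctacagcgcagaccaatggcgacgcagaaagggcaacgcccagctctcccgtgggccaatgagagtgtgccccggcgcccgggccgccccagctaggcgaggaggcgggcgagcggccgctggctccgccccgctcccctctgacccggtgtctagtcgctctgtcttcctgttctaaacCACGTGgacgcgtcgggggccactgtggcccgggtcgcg
Gnl3, chr16:6219733-6220032, minus strand: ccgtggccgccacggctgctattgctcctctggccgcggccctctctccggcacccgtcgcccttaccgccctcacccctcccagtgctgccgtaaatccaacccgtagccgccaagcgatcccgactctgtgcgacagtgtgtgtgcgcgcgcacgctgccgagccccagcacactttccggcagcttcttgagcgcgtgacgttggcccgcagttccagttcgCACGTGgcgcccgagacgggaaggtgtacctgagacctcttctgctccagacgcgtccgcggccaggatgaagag
Rrp12, chr1:250655269-250655568, minus strand: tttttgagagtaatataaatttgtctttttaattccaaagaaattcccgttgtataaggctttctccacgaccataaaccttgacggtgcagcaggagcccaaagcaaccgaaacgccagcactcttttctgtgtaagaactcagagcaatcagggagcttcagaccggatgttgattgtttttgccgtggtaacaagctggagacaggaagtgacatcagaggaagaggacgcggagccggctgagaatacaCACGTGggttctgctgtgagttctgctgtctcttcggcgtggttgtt
A promoter sequence was matched for 38 of the 43 members, and 13 of them (34.2%) held CACGTG, a palindrome that reads the same on both strands. The share was 9.39% of the 9414 tested genes with a promoter and 7.26% of 18999 protein-coding genes. Besides the 3 shown, the motif lay in the windows of Nop2, Fbl, Pes1, Dkc1, Noc3l, Tsr1, Mybbp1a, Ltv1, Ebna1bp2 and Bysl, with Mybbp1a holding it at 2 places. The windows of Ddx21, Gar1, Nop58, Nip7 and Nob1, also members with large changes, held 0 such motifs. The letters CCGGAAG, searched on both strands as the core of the ETS family motif, were in 20 of the 38 (52.6%) against 17.0% of tested genes. These matches describe letters in the windows and say nothing of binding in these hearts.

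Across the 12 dose and time groups, 3 had changes above 0 for 40 or 41 of the 42 tested members: vinblastine 3 mg/kg at 6 h, and vincristine 1 mg/kg and colchicine 2 mg/kg at 24 h. The members that rose past the threshold numbered 33, 17 and 39 in that order, where 15.7%, 12% and 19.3% of all genes did. Those that fell numbered 0, 2 and 0, where 7.67%, 18.4% and 25.3% of genes did. Without the 10 arrays 24, 25 and 39 rose, where 10.3%, 14.4% and 22.4% of genes did. Vinblastine 3 mg/kg at 24 h raised 0, where 5.29% of genes rose. For each array, the median over the 42 tested members of the log2 difference to the saline mean of the same time was taken. In saline it ran from -0.10 to 0.11 at 6 h and from -0.07 to 0.09 at 24 h. In colchicine 2 mg/kg at 24 h it was lowest at 0.03, with a median of 0.63 and a highest value of 0.89, and the low value came from replicate 1, with the other 5 arrays between 0.48 and 0.89. In vinblastine 3 mg/kg at 6 h it ran from 0.13 over a median of 0.26 to 1.26, the highest of all arrays, reached by replicate 1, with the other 5 between 0.13 and 0.31. All 6 arrays of that group and all 6 of vincristine 1 mg/kg at 24 h, which ran from 0.15 to 0.35, lay above every saline array of their time. By 24 h the vinblastine 3 mg/kg arrays had medians from -0.11 to 0.20 and overlapped saline.

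**Figure D1:**
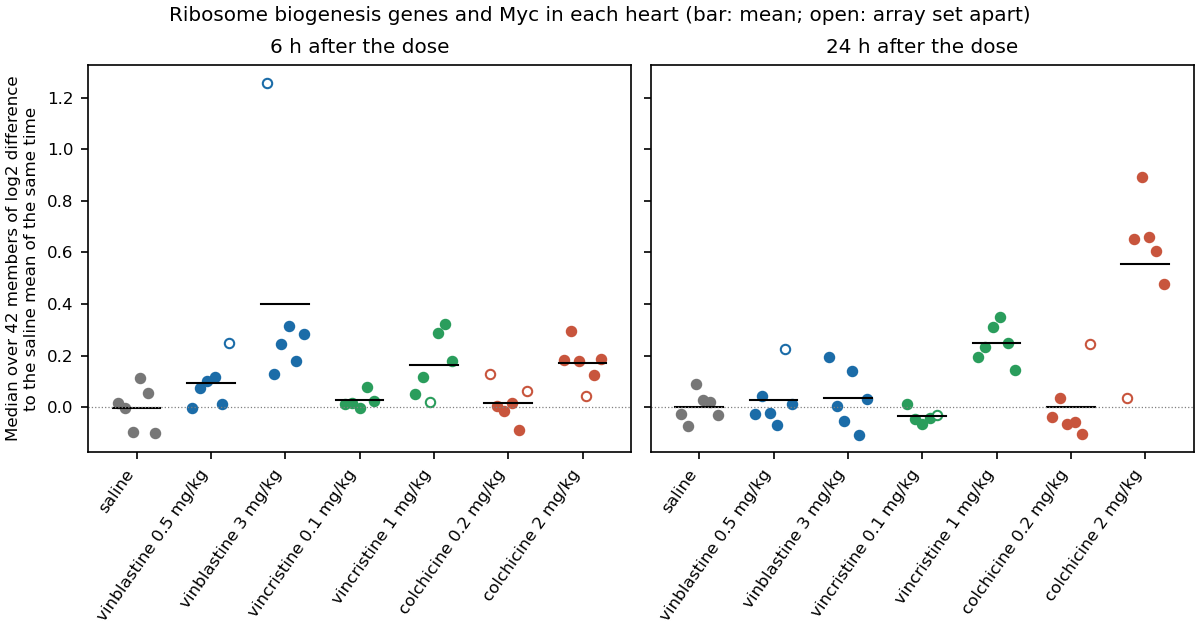
Median over the 42 tested members of the log2 difference to the saline mean of the same time (vertical axis) for each array, by treatment group (horizontal axis). Bars are group means and open points are the 10 arrays set apart by a ratio of distances above 1.3. Colchicine 2 mg/kg at 24 h reaches 0.89 with 1 open point at 0.03, and vinblastine 3 mg/kg at 6 h has its open point at 1.26 above 5 arrays between 0.13 and 0.31.

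Myc itself had an intensity of 71.1 ± 6.28 (SD, n = 6) in saline at 6 h and 64.0 ± 5.16 (n = 6) at 24 h. After vinblastine 3 mg/kg at 6 h the arrays ran from 129 over a median of 179 to 1084. Every one of these 6 arrays lay above every saline array, and replicate 1 alone was above 225. The log2 change was 1.50 ± 0.36 (SE), with an adjusted p of 0.00153 in limma, and 1.07 ± 0.17 (adjusted p = 2.11e-06) without the 10 arrays. P-values were adjusted (Benjamini-Hochberg) for all 11319 genes tested in a comparison, and "rose" or "fell" below means an adjusted p under 0.05.

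At the higher colchicine dose at 24 h, Myc was lowest at 70.2, had a median of 580 and was highest at 1267. Replicate 1, at 70.2, lay among the saline arrays, and the other 5, from 517 to 1267, lay far above them. The rise was 2.62 ± 0.36 on the log2 scale (adjusted p = 1.25e-08), a 6.16-fold difference on the scale of intensity plus 16, and 3.13 without the 10 arrays. Vincristine 1 mg/kg at 24 h gave values from 106 over a median of 205 to 264, all above saline, and a rise of 1.38 ± 0.36 (adjusted p = 0.00223). In vinblastine 3 mg/kg at 24 h Myc ran from 64.8 to 95.1, overlapped saline and differed by 0.32 ± 0.36 (adjusted p = 0.68).

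At 6 h the other higher doses stood between these. Colchicine 2 mg/kg gave Myc values from 71.3 over a median of 170 to 392, of which the lowest overlapped saline. The rise was 1.11 ± 0.36 (adjusted p = 0.0392), lost when any 1 of 11 of the 12 arrays was left out (lowest value 0.88, without replicate 2) and 1.33 without the 10 arrays. Vincristine 1 mg/kg gave values from 69.7 over a median of 164 to 224, with a difference of 0.88 ± 0.36 (adjusted p = 0.163) that became 1.06 (adjusted p = 3.78e-06) without the 10 arrays. The lower doses left Myc near saline: group means were 95.8, 67.7 and 66.8 for vinblastine 0.5 mg/kg, vincristine 0.1 mg/kg and colchicine 0.2 mg/kg at 6 h, and 87.9, 67.8 and 105 at 24 h. Their differences ran from -0.08 to 0.33, and in 3 of the 6 groups 1 array set apart from its group gave the highest value: 257 in vinblastine 0.5 mg/kg at 6 h, 199.7 in the same dose at 24 h and 310 in colchicine 0.2 mg/kg at 24 h.

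**Figure D2:**
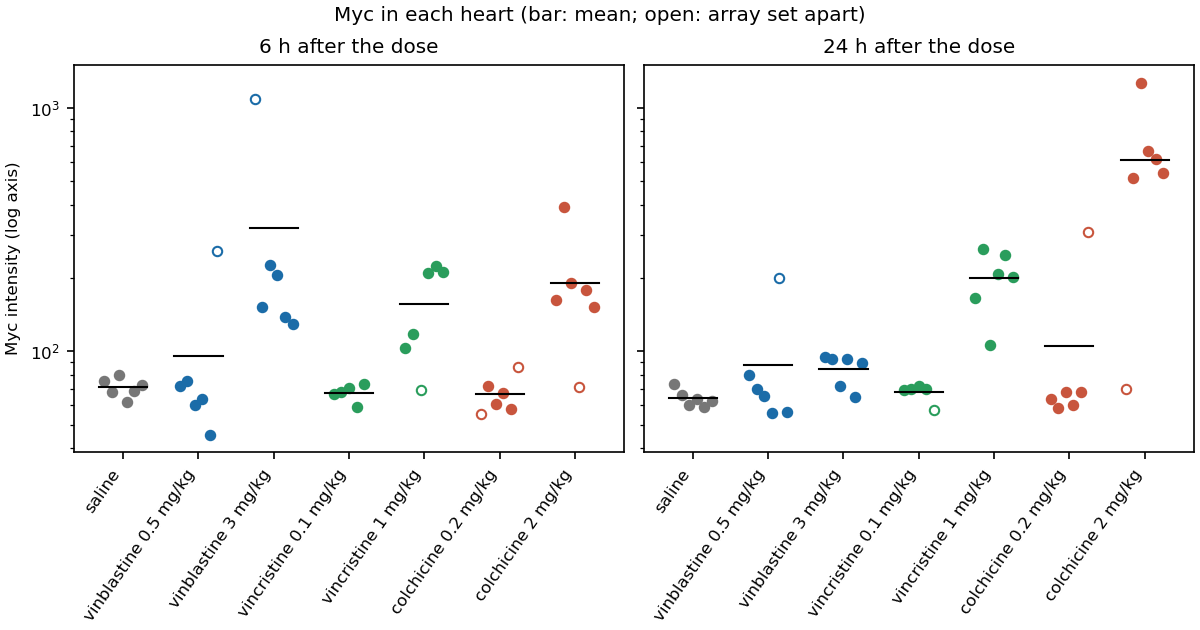
Intensity of the Myc probe set on a log axis (vertical) for each array, by treatment group (horizontal). Bars are group means and open points are the 10 arrays set apart by a ratio of distances above 1.3. Saline arrays lie between 58.8 and 80.0, while colchicine 2 mg/kg at 24 h holds 5 arrays from 517 to 1267 and 1 open point at 70.2.

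Vinblastine 3 mg/kg raised most of the ribosome factors within 6 h. Of the 42 tested members 33 rose and 0 fell, where 15.7% of all tested genes rose and 7.67% fell, and 41 of the 42 changes were above 0 with a median of 0.41 against 0.01 over all genes. This count rests in part on replicate 1, an array in which the members stood highest: without it 19 rose and 1 fell, and 4 rose when only this group and its saline arrays were fitted. With the 10 arrays left out 24 rose, all of them among the 33, while Rrs1 fell, where 10.3% of all genes rose and 5.52% fell. The arrays of 14 members lay above every saline array, against 4.84% of all tested genes.

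Besides Myc, the largest rises at 6 h were in Ddx21, a nucleolar RNA helicase, Rcl1, which is needed for small-subunit RNA processing in yeast, Gar1, a protein of the box H/ACA particle, Gnl3 (nucleostemin) and Rrp12, a factor of subunit export in yeast. Ddx21 ran from 146 over a median of 193 to 261 in saline and from 261 over 326 to 1368 after vinblastine. The groups met at 261 without overlapping, and the change was 0.94 ± 0.22 (adjusted p = 0.00088), or 0.59 without the 10 arrays. Rcl1 ran from 165 over 179 to 207 in saline and from 238 over 281 to 1580 after vinblastine, and the groups did not overlap. Its change was 0.93 ± 0.21 (adjusted p = 0.000873), and 0.52 without the 10 arrays. Gnl3 ran from 247 over 315 to 353 in saline and from 426 over 460 to 1265 after vinblastine, again with no overlap, a change of 0.76 ± 0.16 (adjusted p = 0.000236) and 0.51 without the 10 arrays. Gar1, from 111 over 124 to 168 in saline and from 184 over 204 to 573 after vinblastine, did not overlap and rose by 0.83 ± 0.17 (adjusted p = 0.000151; 0.59 without the 10 arrays). Rrp12 ran from 92.1 over 103.5 to 107 in saline and from 114 over 146 to 656 after vinblastine, a rise of 0.74 ± 0.19 (adjusted p = 0.0029). Without replicate 1 it stood at 0.38 and was no longer past the threshold (adjusted p = 0.073), while it was past it without all 10 arrays (adjusted p = 0.00664).

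Grouped by role, the rise after vinblastine 3 mg/kg at 6 h took in members of every role, with the sizes in the next sentences from all arrays. All 5 nucleolar proteins and chaperones rose, with Ncl (nucleolin) from 1016 to 1611 and Mybbp1a by 0.38, Grwd1 by 0.28 and Nolc1 by 0.22. Of the box C/D proteins 3 of 4 rose: Nop58 by 0.66, the methyltransferase Fbl by 0.66 and Nop56 by 0.26, with Rrp9 at 0.15 not past the threshold. Of the box H/ACA proteins, which serve pseudouridylation, Gar1, Nhp2 (0.38) and the synthase Dkc1 (0.25) rose, and Nop10 stood at 0.12. Of the small-subunit factors 10 of 12 rose, with a median of 0.44. Among them were Wdr43 (0.55), Tsr1 (0.54), Heatr1 (0.50), Ltv1 (0.45), the nuclease Nob1 (0.43), Wdr3 (0.38), Ddx10 (0.31) and Bysl (0.31). The exceptions were Imp3 and Imp4, partners in the U3 particle, at 0.23 and 0.11. Of the large-subunit factors 9 of 12 rose, with a median of 0.47. They included Pes1 (0.44), Bop1 (0.35) and Wdr12 (0.68), which form 1 complex, and Ebna1bp2 (0.59), Nip7 (0.59), Gnl2 (0.58), Ppan (0.51) and Mrto4 (0.44). Nop2 (0.20), Noc2l (0.25) and Rrs1 (-0.15) were not past the threshold. Without the 10 arrays 9 of these rises were lost: Grwd1, Nolc1, Nop56, Nhp2, Dkc1, Wdr3, Ddx10, Nip7 and Bop1, at 0.07 (Nop56) to 0.24 (Nip7). That left 3 of 5 nucleolar proteins, 2 of 4 box C/D proteins, Gar1 alone of the box H/ACA proteins, 8 of 12 small-subunit and 7 of 12 large-subunit factors, and the median change over all members was 0.25.

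**Figure D3:**
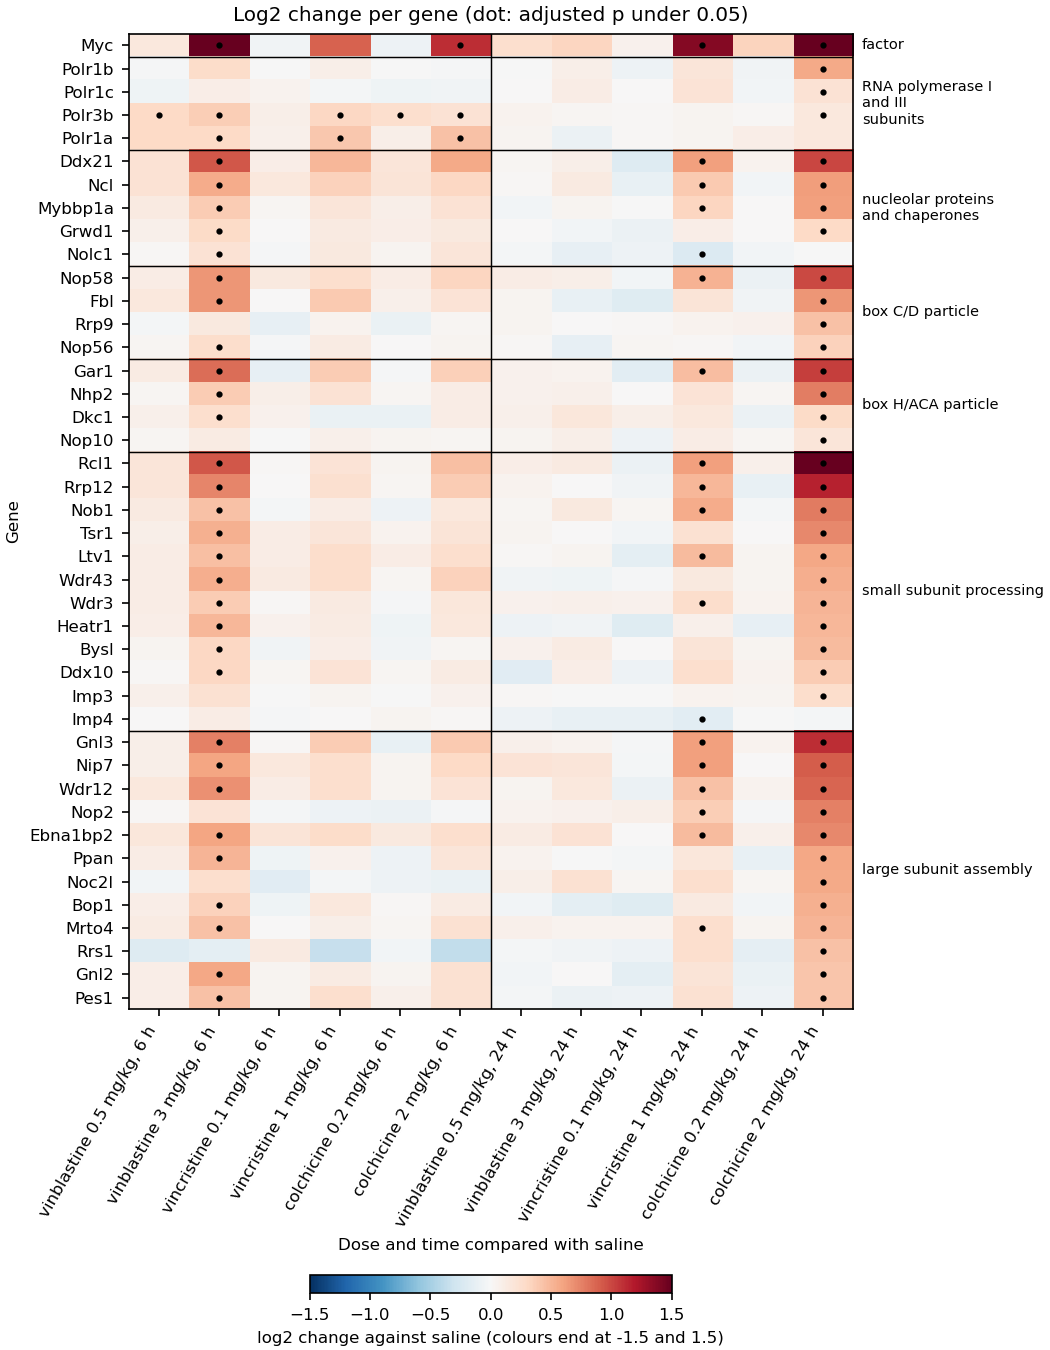
Log2 change against saline of the same time (colour) for the 42 tested members (rows, by role) in the 12 dose and time groups (columns); a dot marks an adjusted p under 0.05. Dots fill 33 rows for vinblastine 3 mg/kg at 6 h, 39 for colchicine 2 mg/kg and 19 for vincristine 1 mg/kg at 24 h, and 0 for vinblastine 3 mg/kg at 24 h.

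The other 2 compounds moved fewer members past the threshold at 6 h. After vincristine 1 mg/kg 2 members rose and 0 fell, where 2.05% of all genes rose and 1.25% fell, and after colchicine 2 mg/kg 3 rose and 0 fell, where 4.89% rose and 4.37% fell. Most members still leaned upward, with 37 of 42 changes above 0 in each group and medians of 0.17 and 0.19. Once the 10 arrays were left out, 17 rose and 1 fell after vincristine (7.2% and 5.12% of all genes) and 22 rose and 1 fell after colchicine (9.47% and 9.87%). The median change stood at 0.20 and 0.21 in those fits, so the sizes moved less than the counts. Vinblastine, vincristine and colchicine are compared here with the same saline arrays at 6 h, so their values stand side by side and are not independent of each other.

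The 2 members that rose after vincristine were Polr1a, the largest subunit of RNA polymerase I, and Polr3b, the second-largest subunit of RNA polymerase III. After colchicine they rose as well, with Myc as the third. Polr1a ran from 236 over 266 to 288 in saline at 6 h. It ran from 275 over 337 to 368 after vinblastine 3 mg/kg, from 262 over 379 to 421 after vincristine 1 mg/kg and from 288 over 362 to 428 after colchicine 2 mg/kg. The colchicine arrays lay above every saline array by a narrow margin and the vinca groups overlapped saline. The rises were 0.30 ± 0.10 (adjusted p = 0.0238), 0.41 ± 0.10 (0.015) and 0.43 ± 0.10 (0.00243), and the vincristine rise was lost when its replicate 4, 5 or 6 was left out (0.36 to 0.38). At 24 h Polr1a stood at -0.09, 0.04 and 0.15 against saline, all short of the threshold.

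Polr3b ran from 112 over 121 to 133 in saline at 6 h and lay above every saline array in all arrays of 5 of the 6 treated groups at 6 h. It ran from 146 over 163 to 188 after vinblastine 3 mg/kg (change 0.37 ± 0.06, adjusted p = 1.15e-05) and from 134 over 157 to 174 after vincristine 1 mg/kg (0.31, adjusted p = 0.00521). After colchicine 2 mg/kg it ran from 136 over 144 to 161 (0.22, adjusted p = 0.0121). It was the sole member past the threshold at a lower dose. In vinblastine 0.5 mg/kg it ran from 149.9 to 164 (0.30, adjusted p = 0.011) and in colchicine 0.2 mg/kg from 142 to 155 (0.25, adjusted p = 0.0427). Those counts of 1 member stand against 0.00883% and 0.247% of genes that rose and 0.0265% that fell at each of these doses. Both low-dose calls were lost in the fit of only the groups compared. That of vinblastine was lost when any 1 of 5 of the 12 arrays was left out, and that of colchicine was lost when any 1 of 9 of the 12 arrays was left out. In vincristine 0.1 mg/kg Polr3b stood at 0.08 (adjusted p = 1) and 0 members and 0% of genes passed, with 0 members at an unadjusted p under 0.05. Of all genes 1.72% were higher and 2.17% lower at that unadjusted p in vincristine 0.1 mg/kg. The saline arrays themselves were higher for Polr3b at 24 h, from 127 over 144 to 159, a difference that did not pass the threshold. Between saline at 24 h and saline at 6 h 0 members differed, where 0% of genes were higher and 0.00883% lower. At an unadjusted p under 0.05, 2 members were higher and 0 lower, where 8.79% and 3.81% of genes were.

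Rrs1, which helps bring the 5S RNA particle to the large subunit in yeast, went against the rest of its group at 6 h. It ran from 241 over 287 to 341 in saline, from 161 over 219.8 to 298 after vincristine 1 mg/kg and from 178 over 206 to 298 after colchicine 2 mg/kg. The lowest treated arrays were below all saline arrays and the groups overlapped, with differences of -0.34 (adjusted p = 0.139) and -0.37 (adjusted p = 0.0681). After vinblastine 3 mg/kg 5 arrays ran from 187 to 250 and replicate 1 stood at 567. Without the 10 arrays Rrs1 was the 1 member that fell at 6 h after each compound, by 0.37 after vinblastine, 0.42 after vincristine and 0.45 after colchicine (adjusted p = 0.00159, 0.000349 and 6.1e-05). At 24 h it rose after colchicine 2 mg/kg, from 298 ± 25.8 to 412 ± 59.3 (SD, n = 6 each), a change of 0.44 ± 0.13 (adjusted p = 0.00498).

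**Figure D4:**
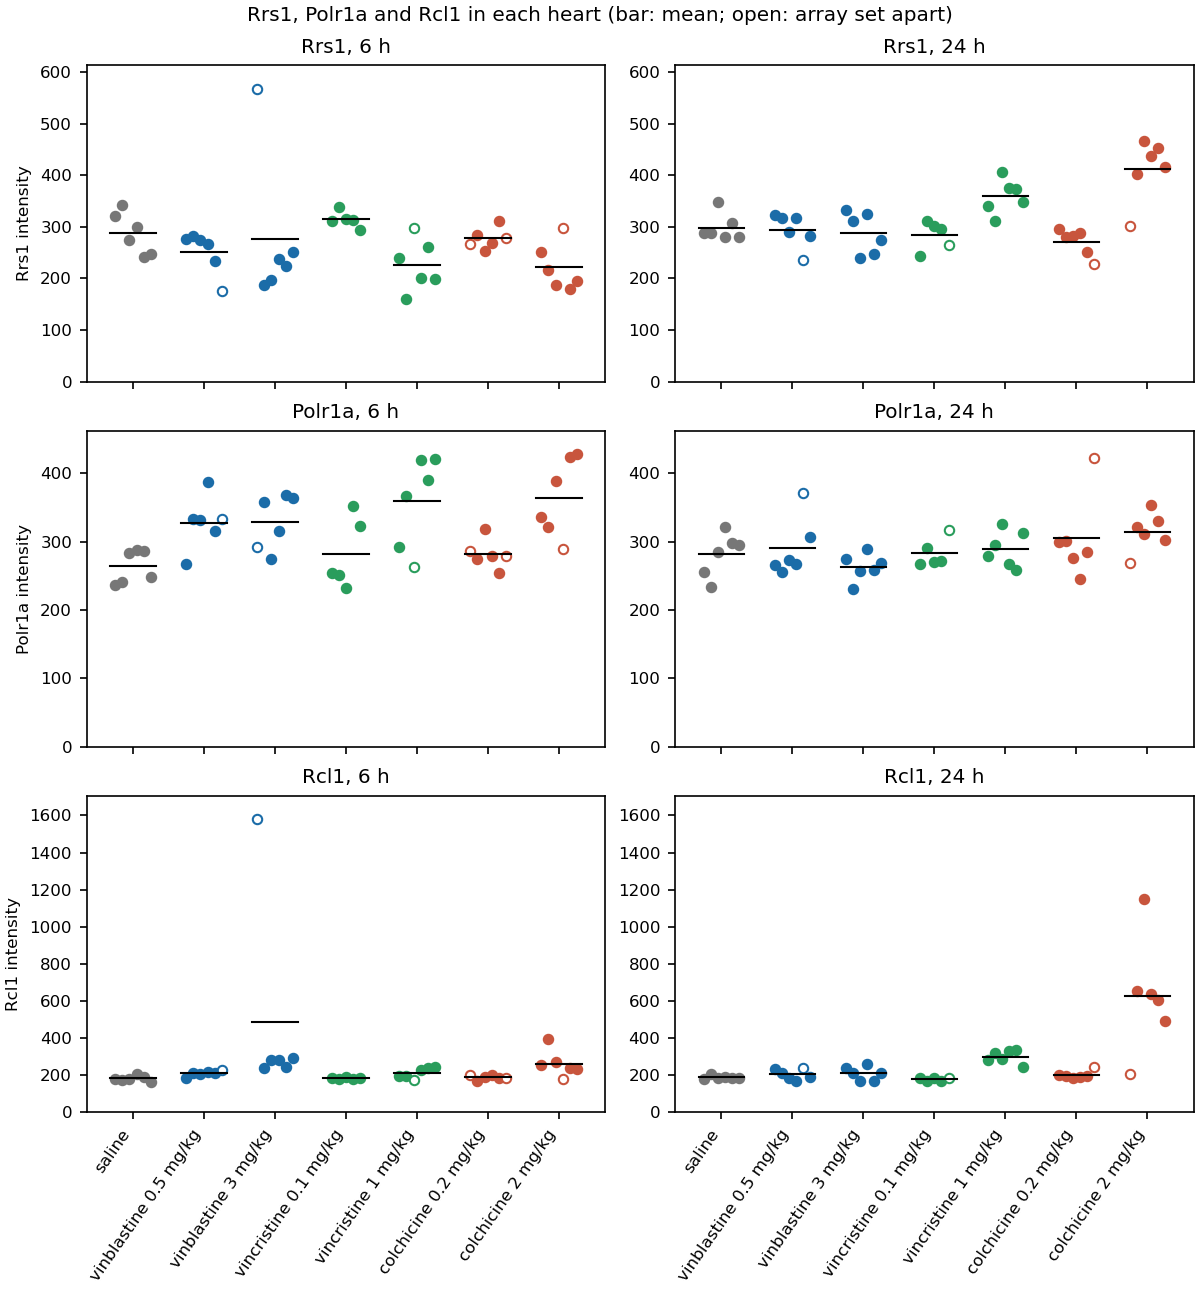
Intensity of Rrs1, Polr1a and Rcl1 (vertical axes) for each array of saline, the lower and the higher doses at 6 and 24 h (horizontal axes). Bars are group means and open points are the arrays set apart by a ratio of distances above 1.3. At the higher doses, Rrs1 at 6 h has vincristine and colchicine arrays down to 161 and 178 with saline from 241 to 341. Polr1a reaches 428 in the higher colchicine dose at 6 h. Rcl1 reaches 1150 in the higher colchicine dose at 24 h and 1580 in replicate 1 of the higher vinblastine dose at 6 h.

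Colchicine 2 mg/kg raised nearly the whole module by 24 h. Of the 42 members 39 rose and 0 fell, where 19.3% of all genes rose and 25.3% fell, and the median change was 0.55 against 0.00 over all genes. The count was again 39, of the same members, without the 10 arrays (22.4% and 28.2% of genes), with a median of 0.65, and it ran from 35 to 39 when single arrays were left out. The arrays of 5 members, Dkc1, Rrp9, Noc2l, Mrto4 and Bysl, lay above every saline array, against 4.13% of all genes. For the others replicate 1 fell among or near the saline arrays.

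Rcl1 ran from 180 over 185 to 207 in saline at 24 h and from 207 over 620.5 to 1150 after colchicine, with replicate 1 at 207 and the other 5 arrays from 492 up. It rose by 1.49 ± 0.21 (adjusted p = 3.05e-08). Rrp12 ran from 108 over 113 to 128 in saline and from 109.8 over 306 to 494 after colchicine, with replicate 1 again among the saline arrays and a rise of 1.16 ± 0.19 (adjusted p = 6.71e-07). Gnl3 ran from 284 over 299 to 333 in saline and from 332 over 721 to 983 after colchicine, with replicate 1 just under the highest saline array and a rise of 1.10 ± 0.16 (adjusted p = 1.93e-08). Gar1 rose by 1.04 (adjusted p = 3.41e-07), Ddx21 by 1.00 (adjusted p = 7.83e-05) and Nop58, a core protein of the box C/D particle, by 0.99 (adjusted p = 2.49e-07).

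By role, all 12 tested large-subunit factors rose after colchicine (median 0.57), as did 11 of 12 small-subunit factors (median 0.53), all 4 box C/D proteins, all 4 box H/ACA proteins and 4 of 5 nucleolar proteins. Members not past the threshold at 6 h after vinblastine were among them. Nop2, the methyltransferase of large-subunit RNA, ran from 361 over 436 to 468 in saline and from 456 over 780 to 885 after colchicine, with replicate 1 inside the saline range and a change of 0.76 ± 0.10 (adjusted p = 2.97e-09). Polr1b, the second-largest RNA polymerase I subunit, rose by 0.57 (adjusted p = 4.39e-05), and Polr1c, a subunit of polymerases I and III, by 0.22 (adjusted p = 0.0325). Polr1a (0.15), Nolc1 (-0.01) and Imp4 (-0.03) were not past the threshold. The deposited table holds 4 Nolc1 probe sets that disagree: the 1 used here stood at -0.01 and another at 0.60.

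Vincristine 1 mg/kg at 24 h moved part of the module. Of the 42 members 17 rose and 2 fell, where 12% of all genes rose and 18.4% fell, and 25 against 2 (14.4% and 20.5% of genes) once the 10 arrays were left out. The spread within this group was narrow: the arrays of 17 members lay above every saline array, against 8.33% of genes, and those of 1 member below, against 11.8%. Nob1, the nuclease that makes the last cut of small-subunit RNA, ran from 383 over 398 to 436 in saline and from 569 over 592 to 642 after vincristine. The groups were far apart, with a rise of 0.55 ± 0.11 (adjusted p = 6.93e-05). Gnl3 rose by 0.61 ± 0.16, from 302 ± 16.5 to 470 ± 34.2 (SD, n = 6; adjusted p = 0.00159), with no overlap. Nip7, a large-subunit factor, rose by 0.62 ± 0.19, from 68.0 ± 11.7 to 113 ± 13.4 (adjusted p = 0.00762). Rcl1 rose by 0.62 ± 0.21, from 188 ± 10.1 to 299 ± 34.6 (adjusted p = 0.0219), and Ddx21 by 0.61 ± 0.22, from 235 ± 33.0 to 368 ± 48.0 (adjusted p = 0.0228).

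None of the 4 polymerase subunits passed the threshold after vincristine at 24 h, and 1 of 4 box C/D and 1 of 4 box H/ACA proteins rose, against 6 of 12 large-subunit and 5 of 12 small-subunit factors. The 2 falls were small. Imp4 ran from 702 over 746 to 768 in saline and from 631 over 658 to 700.4 after vincristine, all below saline, a change of -0.16 ± 0.06 (adjusted p = 0.0318). Nolc1 changed by -0.20 ± 0.08 (adjusted p = 0.0392), but its other probe sets stood at 0.06 or nearer to 0, and the mean of its probe sets changed by -0.04. Each fall was lost in 6 of the 12 fits that left out 1 array of the groups compared.

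Vinblastine 3 mg/kg moved 0 members past the threshold in either direction at 24 h, while 5.29% of all genes rose and 4.28% fell. At an unadjusted p under 0.05, 1 member was higher and 0 lower, where 11% of genes were higher and 11.3% lower. The median change was 0.05, with 29 of 42 above 0. The count past the threshold was 0 without the 10 arrays as well (8.01% and 7.75% of genes). The lower doses at 24 h moved 0 members and 0% of genes, with medians of 0.04 for vinblastine 0.5 mg/kg, -0.04 for vincristine 0.1 mg/kg and 0.01 for colchicine 0.2 mg/kg. At an unadjusted p under 0.05 they moved 0 members, where 0.627% to 0.963% of genes were higher and 1.38% to 1.96% lower.

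The course over time was tested within each compound as the 24 h change less the 6 h change. For colchicine 2 mg/kg the change was larger at 24 h for 18 members and smaller for 0, where 6.3% of genes had a larger and 12.6% a smaller value. It was larger by 1.52 ± 0.51 for Myc (adjusted p = 0.028), 1.04 for Rcl1 (0.0099), 0.80 for Rrs1 (0.00134), 0.78 for Nop2 (5.78e-05), 0.78 for Rrp12 (0.0315), 0.71 for Gnl3 (0.0152) and 0.68 for Gar1 (0.0325). The count was 31 without the 10 arrays (11.5% of genes). The counts were 10 without replicate 3 of colchicine 2 mg/kg at 24 h and 27 without its replicate 1.

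For vinblastine 3 mg/kg the change was smaller at 24 h for 9 members and larger for 0, where 1.78% of genes had a larger and 2.66% a smaller value. Among the 9 were Gar1 (-0.78, adjusted p = 0.0392), Fbl (-0.78, 0.0439), Gnl3 (-0.70, 0.0481), Wdr43 (-0.61, 0.0251) and Polr3b (-0.34, 0.0148), and Myc stood at -1.18 ± 0.51 (0.173). This count is unsteady: it was 1 without replicate 1 of vinblastine 3 mg/kg at 6 h, 16 without replicate 2, 1 without replicate 3 of saline at 6 h, and 0 in the fit of only the groups compared. It was 7 without the 10 arrays (4.9% of genes). For vincristine 1 mg/kg, Nop2 (0.44) and Rrs1 (0.59) had a larger and Polr3b (-0.27) and Nolc1 (-0.35) a smaller change at 24 h, 2 each way, where 3.53% and 8.73% of genes did.

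Dose was compared at 6 h. Between vinblastine 3 and 0.5 mg/kg 18 members were higher and 0 lower at the higher dose, where 5.81% of genes were higher and 2.71% lower. The largest difference was that of Myc, 1.34 (adjusted p = 0.0144), followed by Rcl1 at 0.75, Ddx21 at 0.72 and Gar1 at 0.71. Without replicate 1 of the higher dose 0 passed, 25 without its replicate 2, and 11 without the 10 arrays (5.7% of genes), so the count hangs on single arrays. Between colchicine 2 and 0.2 mg/kg 3 members were higher, Myc (1.19, adjusted p = 0.0247), Gnl3 (0.50) and Polr1a (0.34), where 4.47% of genes were higher and 4.78% lower. Between vincristine 1 and 0.1 mg/kg Polr3b was higher (0.23) and Rrs1 lower (-0.47), where 1.61% and 1.2% of genes were. When the 10 arrays were left out, 12 members were higher and 1 lower for colchicine, where 7.83% and 7.34% of genes were, and 7 were higher and 1 lower for vincristine, where 6.18% and 5.08% were.

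Between the higher doses of the 3 compounds, 0 members differed at 6 h in any pair and 0% of all genes passed in either direction. At an unadjusted p under 0.05, vinblastine was higher than vincristine for 21 members (8.99% of all genes) and higher than colchicine for 21 (8.43%), and vincristine was lower than colchicine for 1 (2.41%). Most of this rested on the arrays set apart. Without them the counts were 5 (4.51% of genes), 1 (4.96%) and 3 (4.21%), and the median member difference went from 0.26 to 0.04 between vinblastine and vincristine and from 0.24 to 0.04 between vinblastine and colchicine.

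For Myc at 6 h, vinblastine and vincristine differed by 0.62, with a 95% interval from -0.11 to 1.34, and by 0.01 (-0.35 to 0.37) without the 10 arrays. Vinblastine less colchicine was 0.40 (-0.33 to 1.12), and turned to -0.26 (-0.62 to 0.10) without them. Vincristine less colchicine was -0.22 (-0.95 to 0.50) and -0.26 (-0.62 to 0.10). No interval excludes 0, and none shows that the compounds act alike on Myc.

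At 24 h the groups separated, in comparisons added after the values had been seen. The vinblastine 3 mg/kg group was lower than the colchicine 2 mg/kg group for 35 members and higher for 0, where 20.4% of genes were higher and 13.8% lower. The difference was -2.30 for Myc (adjusted p = 1.03e-06), -1.36 for Rcl1 (1.03e-06), -1.15 for Rrp12 (2.92e-06) and -1.05 for Gnl3 (3.09e-07). Vincristine 1 mg/kg was lower than colchicine 2 mg/kg for 19 members and higher for 0, where 5.03% of genes were higher and 4.85% lower, with Myc at -1.24 (adjusted p = 0.0191) and Rcl1 at -0.88 (0.00519). That count was 3 without replicate 3 of colchicine, 8 without its replicate 4, 36 without the 10 arrays (12.3% of genes) and 0 when only those groups were fitted.

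The 2 vinca alkaloids differed at 24 h in 3 members, all lower after vinblastine 3 mg/kg than after vincristine 1 mg/kg, where 3.63% of genes were higher and 1.07% lower. They were Gnl3 (-0.56, 95% interval -0.87 to -0.25, adjusted p = 0.0236), Ltv1 (-0.44, 0.00949) and Nob1 (-0.41, 0.0195). Myc differed by -1.06 (95% interval -1.78 to -0.33, adjusted p = 0.0711). Without the 10 arrays 21 were lower (4.6% of genes), Myc among them at the same size (adjusted p = 2.18e-06).

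Rises after vinblastine 3 mg/kg at 6 h were set beside rises after colchicine 2 mg/kg at 24 h. The 2 comparisons use separate saline arrays. Of the 33 and the 39, 31 were shared, 93.9% of the first and 79.5% of the second. With or without the 10 arrays, 39 of the 42 tested members rose after colchicine. A large overlap was therefore set by the counts and does not tell which members rose in common. Across the 42 members the changes correlated with r = 0.865 and rho = 0.789, and with r = 0.790 without Myc, a description of genes measured on the same arrays and not of independent points. Replicate 1 of vinblastine 3 mg/kg at 6 h has its nearest other group in colchicine 2 mg/kg at 24 h, so the comparison was repeated without the 10 arrays. Then 23 were shared, 95.8% of 24 and 59.0% of 39, with r = 0.759 and rho = 0.648. Polr1a rose at 6 h alone in both versions, and the members that rose at 24 h alone in both versions were Imp3, Noc2l, Nop10, Nop2, Polr1b, Polr1c, Rrp9 and Rrs1, joined by 8 more in the second.

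**Figure D5:**
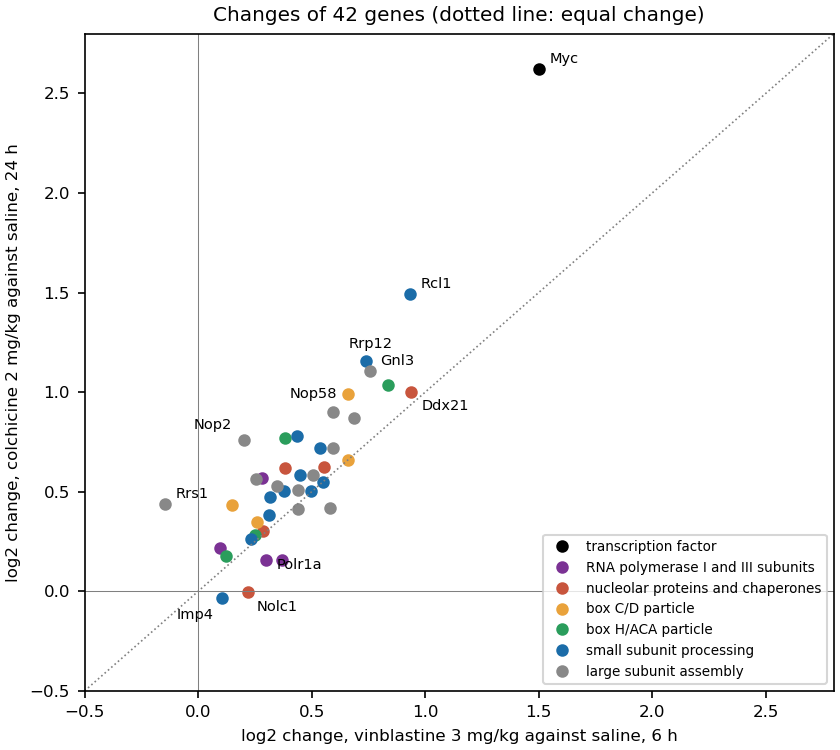
Log2 change of the 42 tested members after vinblastine 3 mg/kg at 6 h (horizontal axis) and after colchicine 2 mg/kg at 24 h (vertical axis), each against its own saline group, coloured by role. Myc lies at 1.50 and 2.62, Rcl1 at 0.93 and 1.49, while Nop2 (0.20 and 0.76) and Rrs1 (-0.15 and 0.44) lie high for colchicine alone, over all members r = 0.865.

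Members differed in how closely their level followed that of Myc. Over the 14 group means, on the log2 scale, the correlation with Myc had a median of 0.919 over the other 41 members, and 25 of them were above 0.9, with Gnl3 at 0.989, Ddx21 at 0.973, Gar1 at 0.970 and Wdr3 at 0.967 at the top. The lowest were Imp4 at 0.17, Rrs1 at 0.31, Nolc1 at 0.41, Polr1a at 0.55 and Polr3b at 0.60. The value of Nolc1 is that of the probe set used, which changed by -0.01 after colchicine 2 mg/kg at 24 h. Its other probe sets changed by 0.60, 0.28 and -0.0008, the last at a mean intensity of 22.9. Within groups, over the 82 residuals, the median was 0.641 and ran from 0.0132 to 0.852, again highest for Gnl3. All genes share the arrays, and the points include the 10 arrays set apart, so these values describe the data only. The share of all tested genes with such correlations is not given here. The counts therefore do not set the members apart from other genes.

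Further factors of the same pathway were counted as well. Of 110 other listed ribosome biogenesis genes 100 were tested, and 54 rose and 0 fell after vinblastine 3 mg/kg at 6 h (15.7% and 7.67% of all genes), among them the helicase Ddx54 (0.57), Mphosph10 of the U3 particle (0.56) and Rpf2 (0.55), the partner of Rrs1. Without the 10 arrays 17 rose, against 10.3% of genes. After colchicine 2 mg/kg at 24 h 59 rose and 3 fell, against 19.3% and 25.3% of genes (69 and 6 without the 10 arrays, against 22.4% and 28.2%), led by Mphosph10 (0.80), Gtpbp4 (0.75) and Ddx54 (0.72), with Gtpbp10 at -0.55. After vincristine 1 mg/kg at 24 h 18 rose and 2 fell, against 12% and 18.4% of genes. Without the 10 arrays 27 rose and 2 fell, against 14.4% and 20.5%. After vinblastine 3 mg/kg at 24 h 0 rose and 2, Ngdn and Rrp1b, fell, against 5.29% and 4.28%. Of 28 other tested genes of RNA polymerase I and III 10 rose and 0 fell after vinblastine at 6 h, against 15.7% and 7.67% of genes. They included Polr1g (0.52), Polr1e (0.49) and Polr1f (0.46). Without the 10 arrays 5 rose, against 10.3% of genes. After colchicine at 24 h 12 rose and 3 fell, against 19.3% and 25.3%, including Polr1e (0.83) upward and Gtf3c1 (-0.53) downward.

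The products of this pathway were counted in the same way. Of 41 tested cytosolic ribosomal protein genes 8 rose and 0 fell after vinblastine 3 mg/kg at 6 h, a share near the 15.7% of all genes that rose, and 0 did without the 10 arrays, where 10.3% of genes rose. After colchicine 2 mg/kg at 24 h 16 rose and 0 fell, where 19.3% of genes rose and 25.3% fell (23 without the 10 arrays, against 22.4%), with Rpl3 from the large subunit at 0.73 (adjusted p = 1.03e-05), and after vincristine 1 mg/kg at 24 h 4 rose, where 12% of genes did (6 without the 10 arrays, against 14.4%). Of 46 tested translation factors 27 rose and 0 fell after vinblastine at 6 h (13 without the 10 arrays) and 18 rose and 1 fell after colchicine at 24 h (22 and 2 without the 10 arrays), against the same shares of all genes. The initiation factor gene Eif1a rose by 1.18 and 1.92 and Eif4ebp1, whose product restrains cap-dependent initiation, by 0.97 and 1.70. Whether these shares differ from those of the biogenesis genes was not tested.

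Other growth genes known as Myc targets moved in both directions at 24 h. Of 25 tested 7 rose and 0 fell after vinblastine 3 mg/kg at 6 h, where 15.7% of all genes rose and 7.67% fell, and 4 rose and 1 fell without the 10 arrays (10.3% and 5.52%). Among the 7 were the amino acid transporter chains Slc3a2 (0.94) and Slc7a5 (0.91) and the mitochondrial folate enzyme Mthfd2 (0.74). After colchicine 2 mg/kg at 24 h 9 rose and 11 fell, where 19.3% and 25.3% of genes did (9 and 12 without the 10 arrays, against 22.4% and 28.2%). Slc7a5 rose by 1.61, Slc3a2 by 1.20 and the spermidine synthase Srm by 0.79, while the transferrin receptor Tfrc changed by -2.98 (adjusted p = 1.07e-10), from 2889 to 731, and the hexokinase Hk2 by -0.87. After vincristine 1 mg/kg at 24 h 4 rose and 12 fell, with or without the 10 arrays, where 12% and 18.4% of genes did with all arrays, and Tfrc stood at -3.76 (adjusted p = 1.62e-13). After vinblastine 3 mg/kg at 24 h 0 rose and 5 fell, where 5.29% and 4.28% of genes did (2 and 7 without the 10 arrays, against 8.01% and 7.75%), with Tfrc at -2.66 (adjusted p = 3.94e-08).

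Among 13 tested Myc relatives and partners, 4 rose and 2 fell after vinblastine 3 mg/kg at 6 h (15.7% and 7.67% of all genes). The Max-binding repressors Mnt (0.49), Mxd1 (0.43) and Mxi1 (0.36) and Max itself (0.32) rose, and Fbxw7, which marks Myc protein for degradation, changed by -0.61 (adjusted p = 0.00338) and Mycn by -0.26. The call of Max was lost without the 10 arrays. Colchicine 2 mg/kg at 6 h raised 2, Mxi1 (0.32) and Mnt (0.29), and lowered Fbxw7 (-0.58), where 4.89% of genes rose and 4.37% fell. Without the 10 arrays 4 rose and 2 fell, where 9.47% and 9.87% of genes did. Vincristine 1 mg/kg at 6 h had 0 of the 13 past the threshold, where 2.05% of genes rose and 1.25% fell. At an unadjusted p under 0.05 there were 4, where 10.8% of genes were higher and 7.8% lower. Without the 10 arrays 1 passed each way, Mxi1 up and Fbxw7 down, where 7.2% of genes rose and 5.12% fell.

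At 24 h 5 rose and 3 fell after colchicine 2 mg/kg, where 19.3% and 25.3% of genes did. Without the 10 arrays 6 rose and 3 fell, where 22.4% and 28.2% of genes did. The names and sizes in the next sentences are from all arrays. The rises were in Mxd1 (0.56), Max (0.33), Mnt (0.33), Mxi1 (0.29) and Mxd4 (0.25), another Max-binding repressor, and the falls in Fbxw7 (-1.09, adjusted p = 5.49e-08), Mycn (-0.38) and Zbtb17 (-0.23), a zinc-finger partner of Myc. After vincristine 1 mg/kg 3 rose and 3 fell, where 12% and 18.4% of genes did (4 and 3 without the 10 arrays, against 14.4% and 20.5%). With all arrays these were Max (0.37), Mxi1 (0.34) and Mxd4 (0.29) upward and Fbxw7 (-0.69), Mycn (-0.40) and Zbtb17 (-0.28) downward. After vinblastine 3 mg/kg at 24 h, where 0 module members passed, Max (0.52) and Mxi1 (0.48) rose and Mycn changed by -0.49, with or without the 10 arrays. Of all genes 5.29% rose and 4.28% fell there, and 8.01% and 7.75% without the 10 arrays.

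Markers of other cells moved in the same groups. Of 12 listed neutrophil markers 7 had a probe set and 4 were tested. The summed intensity of the 7 was 375 in saline at 6 h (343 to 457) and 378 at 24 h (325 to 444). It was 2957 (1453 to 8199) after vinblastine 3 mg/kg at 6 h, 998 (338 to 1537) after vincristine 1 mg/kg and 1438 (363 to 1791) after colchicine 2 mg/kg. At 24 h it was 659 (497 to 757), 1580 (1217 to 2220) and 4363 (467 to 7482) in the same order. The defining markers Csf3r, Cxcr2 and Mmp8 were above the 40th percentile on 1, 0 and 1 of the 82 arrays, while S100a9 was so on 70 and Lcn2, which other cells also make, on all 82. Lcn2 was the brightest of the 7, at a mean of 689 over the 82 arrays. The part of neutrophils in the module's rise was not tested.

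Summed macrophage markers (13 of 14 with a probe set) stood otherwise: 3333 in saline at 24 h, 5828 after vinblastine 3 mg/kg, where 0 members passed, 5433 after vincristine 1 mg/kg and 3912 after colchicine 2 mg/kg. Of 18 listed markers of proliferating cells 11 were tested, and 0 rose at any higher dose, where 2.05% to 19.3% of all genes rose. At 24 h 4 fell after vinblastine, 3 after vincristine and 2 after colchicine, where 4.28%, 18.4% and 25.3% of all genes fell. Smooth muscle and pericyte markers (9 of 9 tested) summed to 11314 (9610 to 12843) in saline and 13840 (11902 to 18323) after vinblastine 3 mg/kg at 6 h, where 1 rose and 1 fell. At 24 h they summed to 11909 (11331 to 12284) in saline and 15372 (12539 to 17162) after colchicine 2 mg/kg, where 3 rose and 1 fell. Endothelial markers (11 of 12 tested) stood at 7763 (6762 to 8773) in saline and 8713 (8126 to 10426) after vinblastine at 6 h, with 3 up and 2 down, and at 7818 (7196 to 9227) and 9836 (7887 to 11240) at 24 h for saline and colchicine, with 6 up and 1 down. Fibroblast markers (10 of 10 tested) were lower after colchicine at 24 h, at 28586 (23187 to 33858) against 37529 (34091 to 43119) in saline, with 3 up and 7 down, and at 6 h stood at 34173 (25874 to 40515) in saline and 32954 (29088 to 36805) after vinblastine, with 2 up and 0 down. After vinblastine 3 mg/kg at 6 h 15.7% of all genes rose and 7.67% fell. After colchicine 2 mg/kg at 24 h 19.3% rose and 25.3% fell. The marker sums and counts are of all arrays, with the 10 set apart included. The part of these cell types in the module's rise was not tested. The summed cardiomyocyte markers at 24 h were 195815 in saline, 203006 after vinblastine, 192444 after vincristine and 192620 after colchicine.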

How the data were processed

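Per the labels, heart RNA was purified with Qiagen RNeasy and 0.5 ug of it was made into biotinylated cRNA (Affymetrix 3' IVT express kit). The deposited values are linear intensities, a single value per probe set and array, which the authors had summarised. How they were normalized and summarised is not given in the sources used here. Of 31099 probe sets, 20826 carry 1 symbol in the array annotation, 436 several and 9837 none, and genes were named from those with 1. The deposited intensities were turned to log2 values after adding 16, which shrinks the changes of dim probe sets. No detection call, raw scan or batch label was used, so precision rests on the number of arrays. Nothing beyond replicate numbers ties samples to cultures, litters or days, so p-values measure the spread between these samples.

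Group means over all 82 arrays were fitted with limma 3.58.1 in R 4.3.3 (with the data.table package, version 1.17.8), with 68 residual and 4.67 prior degrees of freedom, for 25 comparisons, each adjusted by Benjamini-Hochberg over 11319 genes. A gene bright only in a treated group could pass the filter. The fit was tested on simulated data with independent genes and no array set apart. The real arrays differ in both respects, with a median residual correlation between members of 0.639. That test therefore does not show how steady the counts are. Tables and figures were made in Python 3.11.15 with pandas 2.3.3, numpy 2.4.6 and matplotlib 3.10.9. The members and lists were chosen with earlier results of these data known. Named besides Myc and Polr3b were the up to 6 largest rises and falls per higher dose and time, other members by role, up to 3 genes per further list and all Myc relatives called at a higher dose. Rrs1, Polr1a and Nop2 were singled out after their values were seen, as were the 24 h comparisons between compounds. The alternatives were a pseudocount of 1, no filter, quantile normalization, fitting only the groups compared, averaging probe sets and a replicate block. Further ones left out single arrays, the 10 arrays set apart, and the 6 arrays whose name ends in _2, a suffix the labels do not explain. Of these the last 2 were added after the data were seen. The number of columns of other samples was 0. Deviations of same-numbered arrays of different groups had correlations from -0.384 to 0.451. Between saline and each dose group at 6 h, their mean was above that of other arrays, except for colchicine 0.2 mg/kg. It was highest for vincristine 0.1 mg/kg, at 0.196 against -0.040. At 24 h it went both ways, from -0.089 (vinblastine 3 mg/kg) to 0.051 (vinblastine 0.5 mg/kg). Replicate numbers were not taken as pairs in the main fit, and whether same-numbered arrays share a batch was not tested.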

Additional observations from a re-analysis of the deposited data

Results flagged for a closer look

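In 13 of 66 groups of values tested, 1 array stood farther from the rest of its group than Dixon's critical value allows. For independent, normally spread values chance gives about 1 in 20. The groups of values here share arrays, and many are of members named for their large changes, so that rate does not apply to them. Of the 13, 11 lay on arrays nearer to another group. Replicate 1 of vinblastine 3 mg/kg at 6 h gave 7 of them: Myc at 1084, Ddx21 at 1368, Rcl1 at 1580, Gnl3 at 1265, Rrp12 at 656, Gar1 at 573 and the median member difference of 1.26. Myc stood apart at 257 in replicate 6 of vinblastine 0.5 mg/kg at 6 h, at 199.7 in replicate 5 of the same dose at 24 h, at 310 in replicate 6 of colchicine 0.2 mg/kg at 24 h and, on the low side, at 57.2 in replicate 5 of vincristine 0.1 mg/kg at 24 h. On arrays not set apart, Myc reached 392 in replicate 2 of colchicine 2 mg/kg at 6 h and Gar1 168 in replicate 5 of saline at 6 h.

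The change differed between 24 and 6 h, by the test of that difference, for 18 members after colchicine 2 mg/kg. It was larger at 24 h by 1.52 for Myc, 1.04 for Rcl1, 0.78 for Rrp12, 0.71 for Gnl3 and 0.68 for Gar1. After vinblastine 3 mg/kg it differed for 9 members, with -0.78 for Gar1 and -0.70 for Gnl3. After vincristine 1 mg/kg it differed for 4, with -0.35 for Nolc1 and -0.27 for Polr3b.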

How the results depend on the processing

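The pseudocount of 1 moved no count of members by more than 1.5 times. With no filter the vinblastine time difference held 4 members and the vincristine dose difference 1. Quantile normalization gave 5 higher and 1 lower for colchicine 2 mg/kg at 6 h and 8 between the vinca alkaloids at 24 h. Fitting only the groups compared, which leaves fewer arrays for the spread, gave 4 higher for vinblastine 3 mg/kg and 8 for colchicine 2 mg/kg at 6 h, 0 for vinblastine 0.5 and colchicine 0.2 mg/kg at 6 h, 1 for vinblastine 3 mg/kg and 27 for vincristine 1 mg/kg at 24 h, 0 for the vinblastine time and dose differences, 6 for the colchicine dose difference, and at 24 h 12 between the vinca alkaloids and 0 between vincristine and colchicine. Averaging probe sets left 1 lower for vincristine at 24 h. The replicate block gave 1 for the vincristine dose difference. It moved no other count by over 1.5 times, and the check of same-numbered arrays gave correlations from -0.384 to 0.451. Without the 10 arrays set apart 1 member was lower at 6 h for each higher dose, and 17 were higher for vincristine and 22 for colchicine at 6 h. In that fit 31 differed over time for colchicine, and 11, 8 and 13 by dose for vinblastine, vincristine and colchicine. At 24 h 21 differed between the vinca alkaloids and 36 between vincristine and colchicine in that fit. Myc turned to -0.14 for vinblastine 0.5 mg/kg at 6 h and to -0.0046 for colchicine 0.2 mg/kg at 24 h, as it did without replicate 6 of either group (single arrays left out gave -0.14 to 0.29 and -0.0046 to 0.42). The 6 arrays ending in _2 include replicate 1 of vinblastine 3 mg/kg at 6 h, so leaving them out also leaves out that array set apart. Without these 6, 16 were higher for vinblastine 3 mg/kg and 7 for colchicine 2 mg/kg at 6 h, and 0 for vinblastine 0.5 and colchicine 0.2 mg/kg. The vinblastine time and dose differences then held 0 members, and the vincristine and colchicine dose differences 1 and 5. Between the vinca alkaloids 12 differed at 24 h. Apart from the smaller fits, the cause of these moves was not tested. Leaving out single arrays gave 19 to 35 higher and 0 to 1 lower for vinblastine 3 mg/kg, 1 to 2 and 0 to 1 for vincristine 1 mg/kg, and 1 to 6 and 0 to 1 for colchicine 2 mg/kg at 6 h. It gave 0 to 1 higher for vinblastine 0.5 and colchicine 0.2 mg/kg at 6 h, 13 to 18 higher and 0 to 2 lower for vincristine 1 mg/kg at 24 h, and 35 to 39 higher for colchicine 2 mg/kg at 24 h. Time differences ran from 1 to 16, 2 to 5 and 10 to 27, and dose differences from 0 to 25, 0 to 3 and 1 to 5, for vinblastine, vincristine and colchicine. At 24 h the pairs ran from 1 to 4 between the vinca alkaloids, 31 to 36 between vinblastine and colchicine and 3 to 28 between vincristine and colchicine.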
